A study of Homo sapiens with 6 samples.

Results

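The epithelial junction genes examined here are 31 genes, chosen by symbol, that encode proteins of the tight junction, the adherens junction and the desmosome, with EPCAM, CDH17 and ST14 as further surface proteins of epithelia. Of these, 29 were measured, out of 19775 genes with a usable probe set on the array. Where several probe sets carried the symbol of a gene and no other, the 1 with the highest mean signal over the 6 arrays stands for it. Probe sets with the suffix _x_at were used only for genes without another, even where their signal was higher. F11R and CTNND1 were not analysed here, CTNND1 because its probe sets carry a second gene symbol.

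HT-29 cells are a line grown from a human adenocarcinoma of the colon, and 5-Aza (5-aza-2′-deoxycytidine) is a cytidine analog that enters the DNA of dividing cells and blocks DNA methyltransferases. RNA of 5-Aza-treated HT-29 cells was measured on 3 HGU133 Plus 2.0 microarrays and RNA of control HT-29 cells on 3 others. By the methods of the study the treated cells spent 72 hours in medium without serum that held 10 µM 5-Aza, and the control cells received the solvent, water with acetate. Whether each array had a culture of its own is not stated in the sources used here, and the p-values therefore cover only the spread between these arrays, which may be technical. The comparison asks which transcripts differ once DNA methylation has been inhibited. All cells are of 1 established line, and no DNA methylation values of the junction genes were analysed.

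Epithelial cells hold together through several kinds of junction. At the tight junction, claudins and MARVEL-domain proteins seal the space between cells, and plaque proteins tie them to actin. Below it, cadherins bound to catenins form the adherens junction, and desmosomal cadherins anchor keratin filaments through plakoglobin, plakophilins and plakins. In the colon the claudins present set how tightly the epithelium holds back ions and water, and methylation of CpG dinucleotides in a promoter is a known way in which colon cancer cells silence genes.

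Promoter sequence was available from RefSeq (GRCh38.p14) for 18 of the 29 genes, as the 250 bases before a transcription start. Of these windows, 4 are printed 5′ to 3′ along the gene's own strand, with each CG in capitals, since CG is the dinucleotide whose methylation 5-Aza blocks. CLDN1 is shown because it had the highest positive difference among the genes above background, TJP3 because 1 of its probe sets was lower on every treated array, and CLDN4 and CLDN2 because their windows hold the fewest CG. The CLDN1 window lies at chr3:190322447-190322696 on the minus strand and holds 28 CG. The windows of the other genes lie on the plus strand, TJP3 at chr19:3721487-3721736 with 20 CG (the richer of its 2 windows), CLDN4 at chr7:73830746-73830995 with 4 CG and CLDN2 at chrX:106918110-106918359 with 1 CG (the richer of 2).
CLDN1: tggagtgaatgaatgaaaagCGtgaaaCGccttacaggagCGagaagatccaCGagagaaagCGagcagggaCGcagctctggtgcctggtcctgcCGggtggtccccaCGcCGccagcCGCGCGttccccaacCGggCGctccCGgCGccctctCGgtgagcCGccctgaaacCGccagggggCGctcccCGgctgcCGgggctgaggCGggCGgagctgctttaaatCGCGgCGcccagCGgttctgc
TJP3: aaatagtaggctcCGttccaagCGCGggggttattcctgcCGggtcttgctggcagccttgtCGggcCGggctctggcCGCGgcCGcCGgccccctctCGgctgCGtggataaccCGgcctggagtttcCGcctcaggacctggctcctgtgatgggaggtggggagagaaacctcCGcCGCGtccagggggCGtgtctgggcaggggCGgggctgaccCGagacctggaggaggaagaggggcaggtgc
CLDN4: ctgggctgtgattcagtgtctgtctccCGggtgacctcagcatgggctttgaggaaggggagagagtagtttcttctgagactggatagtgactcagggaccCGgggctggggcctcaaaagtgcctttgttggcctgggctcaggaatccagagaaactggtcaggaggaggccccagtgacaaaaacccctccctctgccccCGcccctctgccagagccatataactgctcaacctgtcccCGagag
CLDN2: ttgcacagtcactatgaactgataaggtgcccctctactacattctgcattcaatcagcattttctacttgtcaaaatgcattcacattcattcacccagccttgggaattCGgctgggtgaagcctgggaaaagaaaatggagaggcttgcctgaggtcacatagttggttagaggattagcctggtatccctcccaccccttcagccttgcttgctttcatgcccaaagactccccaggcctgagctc

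Across the 18 genes the median number of CG in the richest window of each gene was 22, from 1 in CLDN2 to 39 in CTNNA1, and the other 63 measured junction genes had a median of 21 in the 46 of them with a window. The median over 27305 genes was 12. A window with 10 or more CG was found for 16 of the 18 (88.9%) and for 54.9% of all genes, and at least 1 CG (the motif CG reads the same on both strands) was found in all 18 and in 94.2% of all genes. By their richest window, the 18 junction genes thus mostly start in CpG-rich sequence, with CLDN2 and CLDN4 as the exceptions. Over all 30 windows of these genes 76.7% held 10 or more CG, beside 52.2% of the windows of all genes. No window was available for the other 11 genes.

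The deposited values are signals in arbitrary units, and a log2 fold change is given as 5-Aza minus control after 1 was added to each signal. The probe sets of a bacterial transcript that the cells lack (TrpnX) reached at most 42 on any array, and genes whose mean was under 42 in both groups are called here under background. The median signal of all probe sets was 83.3 to 86.1 on the treated arrays and 71.8 to 76.9 on the control arrays, although the mean without the lowest and the highest 2% was 500 on each. RNA quality can be read from ACTB, whose 3′ minus 5′ difference was 0.64 to 0.80 on the log2 scale in treated and 0.46 to 0.60 in control cells, and from GAPDH, where it was 0.14 to 0.23 in treated and 0.10 to 0.16 in control cells. The groups were apart for ACTB and overlapped for GAPDH, and whether RNA quality plays a part in the values below was not tested. Of the 8 markers of colon epithelium, 7 were above background in a group, while the caudal homeobox gene CDX1 was under background. The 8 divided into 4 positive and 4 negative differences, with a median of -0.06 on the log2 scale. KRT20 averaged 9531 ± 269 in treated and 7543 ± 969 in control cells and LGALS4 19495 ± 1005 in treated and 23288 ± 981 in control cells (n = 3 each, SD), each with groups that did not overlap. Of 6 fibroblast, 5 endothelial and 5 leukocyte markers measured, 5, 2 and 2 were above background in a group. Under background were COL3A1, CDH5, KDR, TEK, PTPRC, CD14 and ITGAX. A stricter rule asks for signals above the TrpnX level of their own array on all 6 arrays. By it COL1A1 and PECAM1 alone remained of these markers, and 5 of the 8 markers of colon epithelium.

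Nearly the whole set of junction genes gave signals above background in HT-29 cells, with or without 5-Aza. Of the 29 genes, 27 exceeded the TrpnX level on each of the 6 arrays, and only CLDN8 and CDH17 were under background. Passing that level is weak evidence of expression, because the median signal of all probe sets, 71.8 to 86.1, exceeded it on every array. COL1A1 and PECAM1 passed as well. The share of all genes that passed is not given here. The lowest signal of the 27 genes was 258.4 (CLDN23, 5-Aza replicate 1), above those medians. No gene of the set passed the test for a difference after 5-Aza. At an adjusted p under 0.05 (limma, Benjamini-Hochberg over 54613 probe sets) 0 of 29 were called, as were 0% of all 19775 genes, and the smallest adjusted p of the set was 0.680. At an unadjusted limma p under 0.025 the set had 0 higher and 0 lower genes, where 3.00% of all genes were higher and 0.900% lower. The study used this p cut with SAM, for higher probe sets only and together with a rank by log2 fold change. With p under 0.05 before adjustment, CLDN1 was higher and 0 were lower, against 5.28% and 1.87% of all genes.

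**Figure D1:**
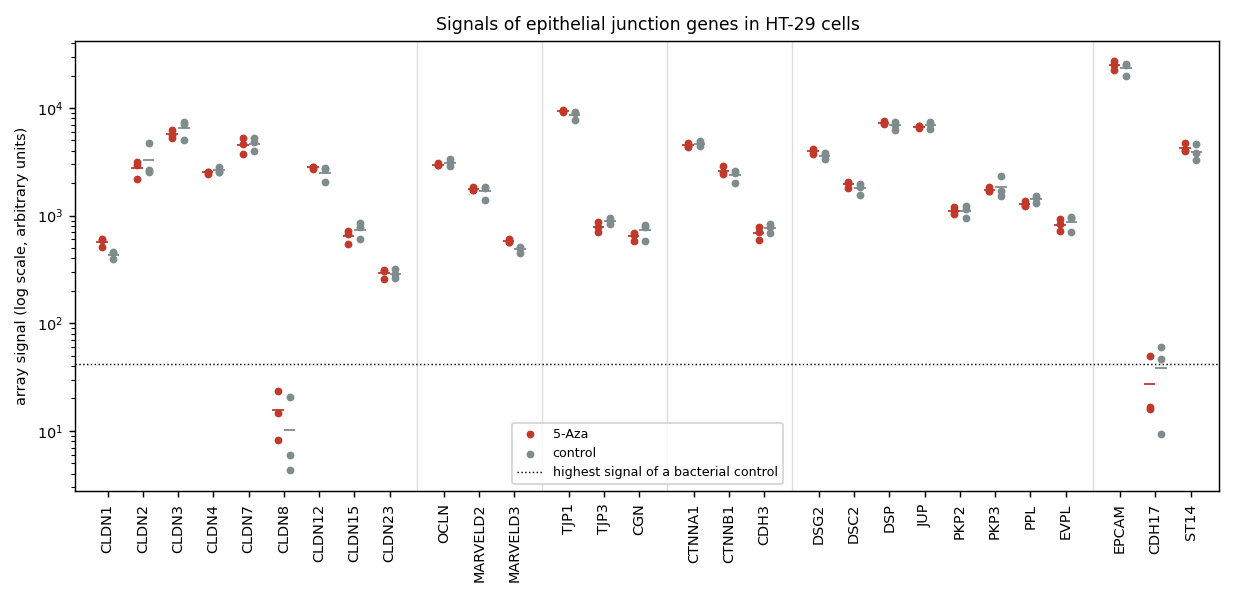
Signal of each of the 29 junction genes on the 3 arrays of 5-Aza-treated (red) and the 3 of control (grey) HT-29 cells, on a log axis in arbitrary units, with short lines for the group means and grey lines between roles. Only CLDN8 and CDH17 lie around or under the dotted line at 42, the highest signal of a bacterial control, and red and grey points of the other genes lie close together.

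The differences were small in both directions. Of the 27 genes above background, the mean log2 signal was higher in treated cells for 13 and lower for 14, and their median log2 fold change was -0.04, beside 0.04 over all genes and -0.01 over the 9887 genes with a mean signal above that of the median gene. Their log2 fold changes ran from -0.21 for CLDN2 to 0.40 for CLDN1. The 95% interval of the fold change stayed within 2-fold either way for 26 of the 29, every gene above background but CLDN2, and within 1.5-fold for 15. The same held within 2-fold for 53.2% of all genes and for 94.3% of those above the median signal. These signs depend on how the arrays are brought to a common level. After centring each array on its median, which moved the median log2 fold change over all genes to -0.15, only CLDN1 and MARVELD3 of the 27 were positive and 25 were negative, with a median of -0.23.

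**Figure D2:**
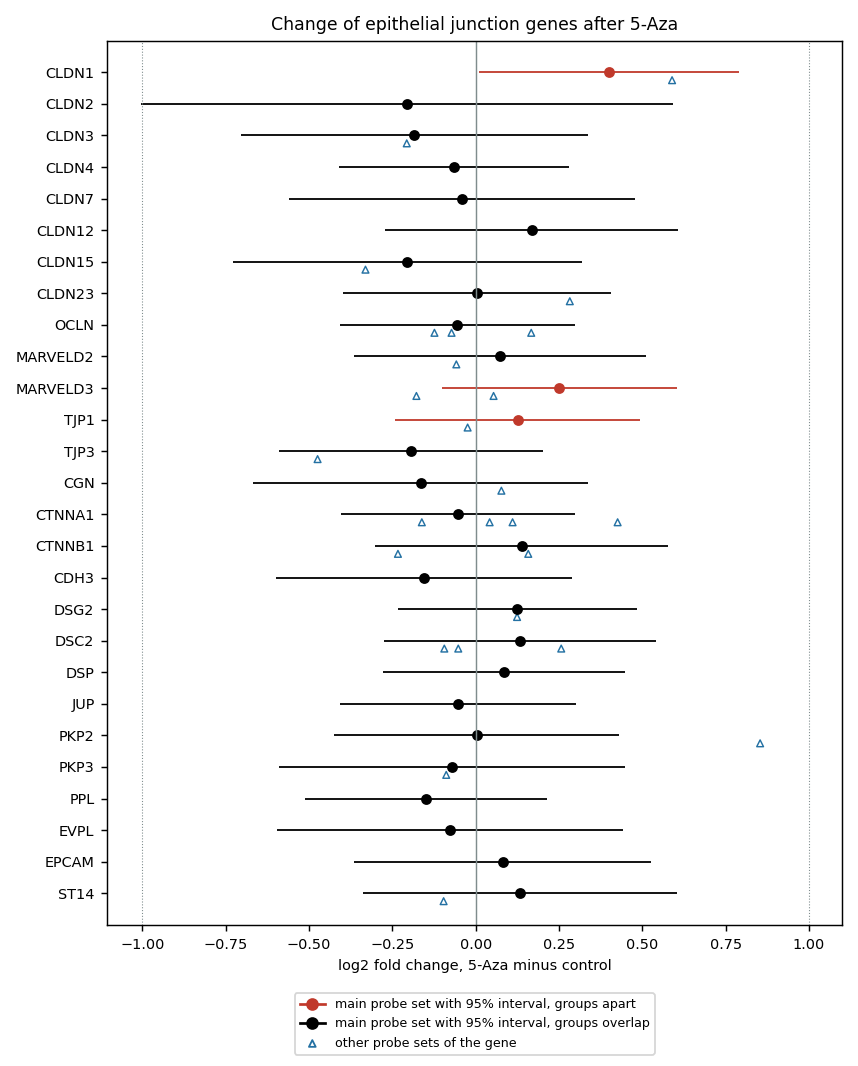
Log2 fold change (5-Aza minus control) of the 27 junction genes above background with its 95% interval from limma, n = 3 arrays per group. Triangles are further probe sets of a gene above background, and dotted lines mark 2-fold. CLDN1, MARVELD3 and TJP1 (red) are the genes whose treated and control arrays did not overlap, and only the interval of CLDN2 reaches past a dotted line.

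The groups were apart in 3 genes, CLDN1, MARVELD3 and TJP1, each with the treated arrays on top, and in 0 genes with the treated arrays underneath. An exact permutation test (two-sided) gives such genes p = 0.1, the smallest that 3 arrays against 3 allow. Over all genes the shares were 9.91% above and 6.90% below, and over the genes above the median signal 9.75% and 10.8%. After median centring the groups overlapped in all 3, with log2 fold changes of 0.21 for CLDN1, 0.06 for MARVELD3 and -0.06 for TJP1, and in 7 others (CLDN4, OCLN, TJP3, CTNNA1, CDH3, JUP and PPL) every treated array lay below, with log2 fold changes between -0.38 for TJP3 and -0.24 for CTNNA1. On that scale every treated array lay above for 4.26% and below for 21.3% of all genes, and for 2.03% and 37.2% of those above the median signal, so that 7 of 29 is near the share of all genes and not a result about the junction genes.

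Claudins are multi-pass membrane proteins whose pairing across the gap between cells makes the tight junction strand. CLDN1, a sealing claudin that is needed for the skin barrier, had signals of 513, 604.9 and 596.8 in 5-Aza-treated cells and of 448, 455.6 and 394 in control cells. The lowest treated array was above the highest control array, by less than the treated arrays differed among themselves. The log2 fold change was 0.40 (SE 0.15, 95% interval 0.01 to 0.79), or 1.32-fold, with an unadjusted p of 0.046 and an adjusted p of 0.680 in limma. A second probe set of CLDN1 pointed the same way, with 123.8, 132.7 and 122.6 in treated cells and 81.4, 91.8 and 78.2 in control cells. Its groups were again apart, with a log2 fold change of 0.59 (SE 0.14) and an adjusted p of 0.510 (unadjusted 0.0082, limma). Probe sets of 1 gene share the RNA of the same arrays and are not separate samples.

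CLDN2, which forms a channel for small cations and water, was the most variable gene above background. Its signals were 3176.5, 2203.1 and 2954.9 in treated cells and 2517.1, 4762.6 and 2653 in control cells. Control replicate 2 stood highest by far, and without it the log2 fold change of -0.21 (SE 0.32) became 0.09. CLDN3 and CLDN4, sealing claudins that bind the enterotoxin of Clostridium perfringens, had lower means after treatment with overlapping arrays. CLDN3 had 5618.1, 5228 and 6182.6 in treated cells and 5065.9, 7027.6 and 7481.4 in control cells, giving a log2 fold change of -0.18 (SE 0.21). CLDN4 had 2562, 2561.8 and 2433.3 in treated cells and 2828, 2568.2 and 2518.1 in control cells, and with -0.07 (SE 0.14, interval from 0.752 to 1.22-fold) it was among the most tightly measured of the set.

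CLDN7, which binds EPCAM in the basolateral membrane, averaged 4552 ± 762 in treated and 4669 ± 650 in control cells (n = 3 each, SD), with -0.04 (SE 0.21) on the log2 scale. CLDN12, a claudin linked to calcium uptake in the gut, averaged 2800 ± 72.5 in treated and 2512 ± 388 in control cells, giving a log2 fold change of 0.17 (SE 0.17). CLDN15, which forms a sodium channel in the small intestine, averaged 642 ± 89.8 in treated and 742 ± 125 in control cells, with -0.20 (SE 0.21). The arrays of the groups overlapped in each of the 3 genes, and a second CLDN15 probe set had -0.33 (SE 0.22). CLDN23 averaged 291 ± 28.1 in treated and 290 ± 25.8 in control cells, a fold of 1.00 with a 95% interval from 0.759 to 1.33. CLDN8, a sealing claudin of the distal colon, was under background, with 8.3, 23.6 and 14.8 in treated cells and 6, 4.3 and 20.5 in control cells, so no fold change is given for it.

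Occludin and its relatives MARVELD2 and MARVELD3 span the membrane at the tight junction, MARVELD2 chiefly at corners where several cells meet. MARVELD3 had signals of 572.8, 567.4 and 604.6 in treated cells and of 450.9, 502.7 and 514 in control cells. The treated arrays lay close together and all above the control arrays, with a log2 fold change of 0.25 (SE 0.14, 95% interval -0.10 to 0.60, adjusted p = 0.776 in limma). Its other probe sets had overlapping groups, with log2 fold changes of 0.05 (SE 0.20) and -0.18 (SE 0.21), and the mean over its probe sets gave 0.04. OCLN averaged 2984 ± 71.9 in treated and 3105 ± 228 in control cells, and MARVELD2 1760 ± 59.0 in treated and 1685 ± 256 in control cells (n = 3 each, SD). In both genes the treated arrays lay within the range of the control arrays, with log2 fold changes of -0.06 (SE 0.14) for OCLN and 0.07 (SE 0.17) for MARVELD2.

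The plaque proteins TJP1 (ZO-1) and TJP3 (ZO-3) are scaffolds that bind claudins and occludin from the inside, and CGN (cingulin) links them to actomyosin. TJP1 had 9329.4, 9157.2 and 9658.6 in treated cells and 9106.2, 7708.5 and 9050.3 in control cells. The gap between the lowest treated and the highest control array was small beside the spread of the control arrays, and the log2 fold change was 0.13 (SE 0.15, adjusted p = 0.882 in limma). Its second probe set had -0.02 (SE 0.16) with overlapping groups.

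TJP3 had a lower mean after treatment, with 778.3, 698.8 and 867.5 in treated cells and 832.9, 949.5 and 891.4 in control cells, giving a log2 fold change of -0.19 (SE 0.16). The groups overlapped through a single treated array. Its other probe set had 426.9, 433.6 and 387.1 in treated cells and 501.9, 713.4 and 537.5 in control cells. There every treated array lay below every control array, with a log2 fold change of -0.47 (SE 0.19) and an adjusted p of 0.693 (unadjusted 0.052, limma). CGN averaged 644 ± 56.3 in treated and 729 ± 133.1 in control cells, with -0.17 (SE 0.20) and overlapping arrays.

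At the adherens junction, CTNNB1 (β-catenin) binds the tail of cadherins and also carries Wnt signals to the nucleus, and CTNNA1 (α-catenin) joins the complex to actin. CTNNB1 had 2884.7, 2538.6 and 2417.1 in treated cells and 2621.5, 2502.1 and 2026.1 in control cells, giving a log2 fold change of 0.14 (SE 0.17). CTNNA1 averaged 4492 ± 249 in treated and 4659 ± 238 in control cells (n = 3 each, SD), with -0.05 (SE 0.14), while 3 of its 4 other probe sets were positive, up to 0.43 (SE 0.34). The groups overlapped in every probe set of both genes. CDH3 (P-cadherin), a cadherin seen more in tumors than in normal colon, averaged 689 ± 92.4 in treated and 765 ± 74.1 in control cells, with -0.16 (SE 0.18) and overlapping arrays.

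The desmosome genes stayed close to 0. The 8 genes divided into 4 positive and 4 negative, between -0.15 for PPL and 0.13 for DSC2, with a median of -0.02, and the 95% interval of all 8 stayed within 2-fold. Median centring turned DSG2, DSC2, DSP and PKP2 negative as well. The desmosomal cadherins had slightly higher means after treatment, though not after centring. DSG2 had 4174, 3702.1 and 3951.4 in treated cells and 3374.8, 3663.7 and 3811.7 in control cells, and DSC2 had 2018, 1800.8 and 2061.4 in treated cells and 1859.9, 1563.5 and 1952.1 in control cells. The log2 fold changes were 0.12 (SE 0.14) for DSG2 and 0.13 (SE 0.16) for DSC2, with overlapping arrays in both. Of the 3 other DSC2 probe sets, the treated arrays exceeded all control arrays in 1, with 393.8, 430 and 421.4 in treated cells and 328.8, 341.3 and 372.3 in control cells (log2 fold change 0.26, SE 0.14), while the others had -0.05 and -0.09.

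The 6 plaque genes of the desmosome had values on both sides of 0, and below 0 after median centring. DSP (desmoplakin), which binds keratin filaments, averaged 7309 ± 266 in treated and 6898 ± 573 in control cells, and JUP (plakoglobin), shared with the adherens junction, 6710 ± 179 in treated and 6973 ± 531 in control cells (n = 3 each, SD). The plakophilins cluster the desmosomal cadherins. PKP2 averaged 1112 ± 92.5 in treated and 1113 ± 142 in control cells, and PKP3 1735 ± 91.3 in treated and 1851 ± 420 in control cells, where control replicate 2 alone reached 2326.8. The plakins PPL (periplakin) and EVPL (envoplakin), known from the cornified envelope of skin, averaged 1284 ± 73.8 and 826 ± 112 in treated cells and 1426 ± 102 and 875 ± 148 in control cells. Treated and control arrays overlapped in all 6 of these genes. The log2 fold changes were 0.09 (SE 0.14) for DSP, -0.05 (SE 0.14) for JUP, 0.0035 (SE 0.17) for PKP2, -0.07 (SE 0.21) for PKP3, -0.15 (SE 0.14) for PPL and -0.08 (SE 0.21) for EVPL.

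EPCAM, a surface glycoprotein of simple epithelia and carcinomas, had 25066.4, 22384 and 27198.1 in treated cells and 25742.4, 25078.4 and 19976.2 in control cells, giving a log2 fold change of 0.08 (SE 0.18). ST14 (matriptase), a membrane protease that cleaves EPCAM, averaged 4257 ± 396 in treated and 3906 ± 657 in control cells, with 0.13 (SE 0.19). The arrays of both genes overlapped between groups. CDH17 (liver-intestine cadherin), a marker of intestinal epithelium, was under background in these HT-29 cells, with 49.8, 16.8 and 15.8 in treated cells and 46.2, 9.3 and 59.9 in control cells.

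Between replicate arrays the junction genes varied less in treated than in control cells. Among the 27 genes above background the median SD was 0.12 on the log2 scale in treated and 0.17 in control cells, and the control SD was the larger for 21 of the 27 (77.8%). The same leaning was present over the genes above the median signal, with median SDs of 0.10 in treated and 0.16 in control cells and the control SD larger for 68.4%. Control replicate 2 was highest for 6 of the 27 genes, among them CLDN2 and PKP3, and lowest for 6, among them CLDN12, MARVELD2 and TJP1, beside 23.9% and 24.2% of the genes above the median signal. Control replicate 3, whose hybridization controls averaged 5826 against 9872 to 12355 on the other arrays, was highest for 6 and lowest for 5, among them CLDN1 and EPCAM, beside 23.9% and 16.8%. Whether these arrays differ through the cells or the assay was not tested.

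**Figure D3:**
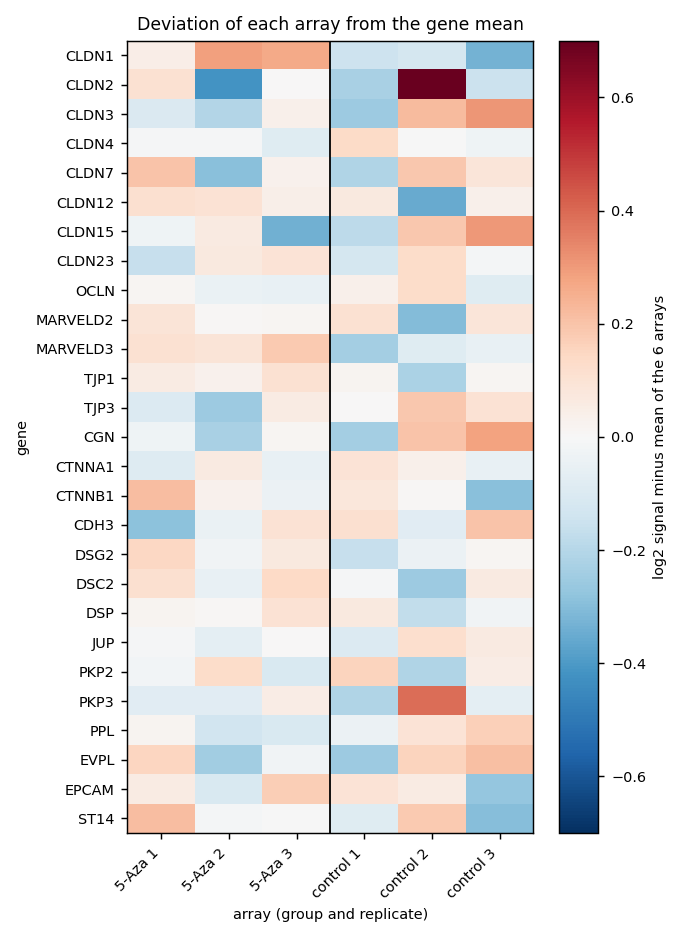
Log2 signal of the 27 junction genes above background on each array, minus the mean of the 6 arrays of that gene (red higher, blue lower). 5-Aza arrays are left of the black line and control arrays right of it. The darkest cell is CLDN2 on control replicate 2, at 0.69, and only in the rows of CLDN1, MARVELD3 and TJP1 do all 3 cells on the left exceed all 3 on the right.

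Probe sets of 1 gene often disagreed at this size of difference. For the 18 genes with more than 1 probe set, 15 of the 29 further probe sets had the same sign as the main one, and 14 of the 26 above background. The further probe set above background shared the sign of the main one in CLDN1, CLDN3, CLDN15, CLDN23, DSG2, PKP2, PKP3 and TJP3, and it did not in CGN, MARVELD2, ST14 and TJP1. In whole-cell RNA of a culture, a smaller share of cells with a transcript and less transcript per cell cannot be told apart.

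Both signs were found among the CpG-rich genes on the deposited scale, but after median centring only CLDN1 of them (0.21) stayed positive. The 16 genes with 10 or more CG had a median log2 fold change of 0.02 and ranged from -0.20 (CLDN15) to 0.40 (CLDN1), and the CpG-poor CLDN2 and CLDN4 had -0.21 and -0.07. TJP3 and CLDN3, with 20 and 19 CG, lay near CLDN2. CTNNA1, with the most CG (39), had -0.05, and CTNNB1, with 34, had 0.14. A count of CG in a window does not say whether the cytosines were methylated in these cells.

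**Figure D4:**
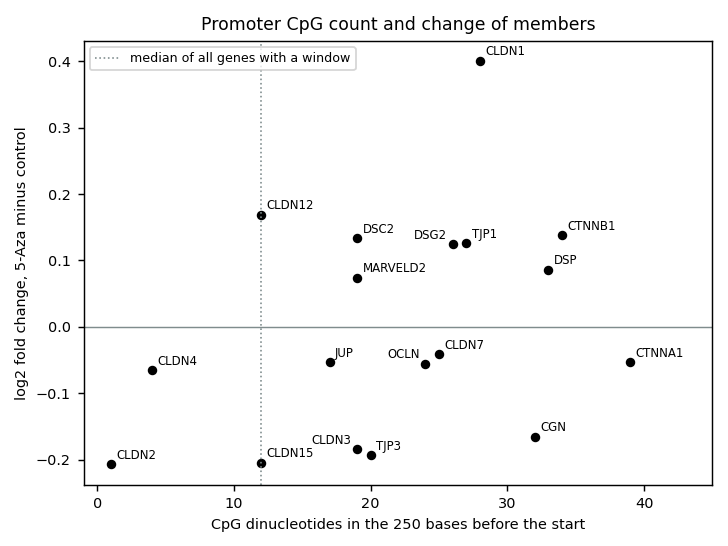
Number of CG in the 250 bases before the transcription start (horizontal axis, richest window of each gene) and log2 fold change, 5-Aza minus control (vertical axis), for the 18 junction genes with a RefSeq window, n = 3 arrays per group. The dotted line is the median of all genes, 12. CLDN1 stands highest at 28 CG, and genes with about 20 CG lie on both sides of 0.

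The wider junction machinery was examined through 70 further genes, of which 63 were measured. At an adjusted p under 0.05, 0 were called. With p under 0.025 before adjustment in limma, CLDN10, GJB6 and MPDZ were the 3 higher genes of 63 and 0 were lower. Of all genes, 3.00% were higher and 0.900% lower. With p under 0.05 CLDN18 made them 4, again with 0 lower, against 5.28% and 1.87% of all genes. These counts are near the shares of all genes and are not a result about the further junction genes. The groups were apart in 12 genes, 10 above and 2 below, beside 9.91% and 6.90% of all genes, and after median centring in 2 above and 12 below, beside 4.26% and 21.3%. Their median log2 fold change was 0.07, with 35 positive and 28 negative, and -0.12 after median centring. Among the 53 above background in a group, other tight junction genes had a median of 0.09 (18 genes), polarity proteins such as PARD3 and SCRIB -0.03 (10), other adherens junction genes 0.04 (12), gap junction genes 0.04 (5) and partners of EPCAM and matriptase 0.0012 (6). The other desmosome genes above background, PERP and PKP4, had 0.28 and 0.34 with groups apart in the probe set used, while their other probe sets above background overlapped, with 0.02 and 0.06 for PERP and -0.0050 to 0.18 for PKP4.

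The largest positive differences among these further genes were those of genes with weak control signals. CLDN10, a claudin of kidney and secretory epithelia, had 135.2, 107.4 and 164.3 in treated cells and 15.6, 81.2 and 33.9 in control cells, where 1 of 3 arrays was above its own TrpnX level. The groups did not overlap. With control signals under the TrpnX level set to that level, the ratio for CLDN10 was 3.03-fold, a minimum for these arrays that leaves out their spread. On the unaltered signals its adjusted p was 0.613 in limma. A second CLDN10 probe set was under background. GJB6 (connexin 30) had 32.7, 62.8 and 64.3 in treated cells and 8.1, 30.8 and 5.9 in control cells, none of which was above its own TrpnX level. Set against that level its ratio was 1.56-fold, a minimum of the same kind (adjusted p = 0.613 in limma on the unaltered signals). CLDN18, the claudin of stomach and lung, had 107, 144.7 and 177 in treated cells and 94.7, 54.8 and 83.4 in control cells, with 0.88 (SE 0.30, adjusted p = 0.640 in limma). Another CLDN18 probe set was also apart, with 70.1, 49 and 27.3 in treated cells and 4, 3.5 and 7.2 in control cells. The remaining CLDN18 probe sets overlapped. MPDZ, a multi-PDZ scaffold named here after its values were seen, had 34.4, 36.8 and 44.5 in treated cells and 4.8, 4.3 and 6.6 in control cells, and had the smallest adjusted p of the lists (0.0933, limma). Its treated signals were above the TrpnX level of their own arrays but on average under 42. Set against that level, the ratio for MPDZ was 1.18-fold. Such minimums were worked out only for genes whose 3 treated arrays all exceeded that level while a control array did not. Its other probe set was under background in both groups.

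The other genes named for groups apart were well above background. VEZT (vezatin), an adherens junction protein, had 1161.3, 984.3 and 1185.4 in treated cells and 885.1, 775.4 and 884.8 in control cells. This gave 0.39 on the log2 scale (SE 0.16, adjusted p = 0.700 in limma). Its other probe sets had -0.02, 0.14 and 0.19, with groups apart only in the last. NECTIN3, an immunoglobulin-like adhesion molecule, had 535, 506.6 and 540.4 in treated cells and 472.7, 406.5 and 364.1 in control cells, with 0.35 (SE 0.16). A second NECTIN3 probe set had 0.19 (SE 0.14) with overlapping groups. Below the control arrays lay SPINT2, an inhibitor of matriptase, and GJB1 (connexin 32). SPINT2 had 10023.9, 9089 and 9358.4 in treated cells and 10648.2, 11520 and 10820.3 in control cells, with -0.21 (SE 0.14, adjusted p = 0.797), and GJB1 had 1823.1, 1842.3 and 1887.3 in treated cells and 1953.4, 1975.6 and 1931.3 in control cells, with -0.08 (SE 0.13). None of these differences passed the adjusted threshold.

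**Figure D5:**
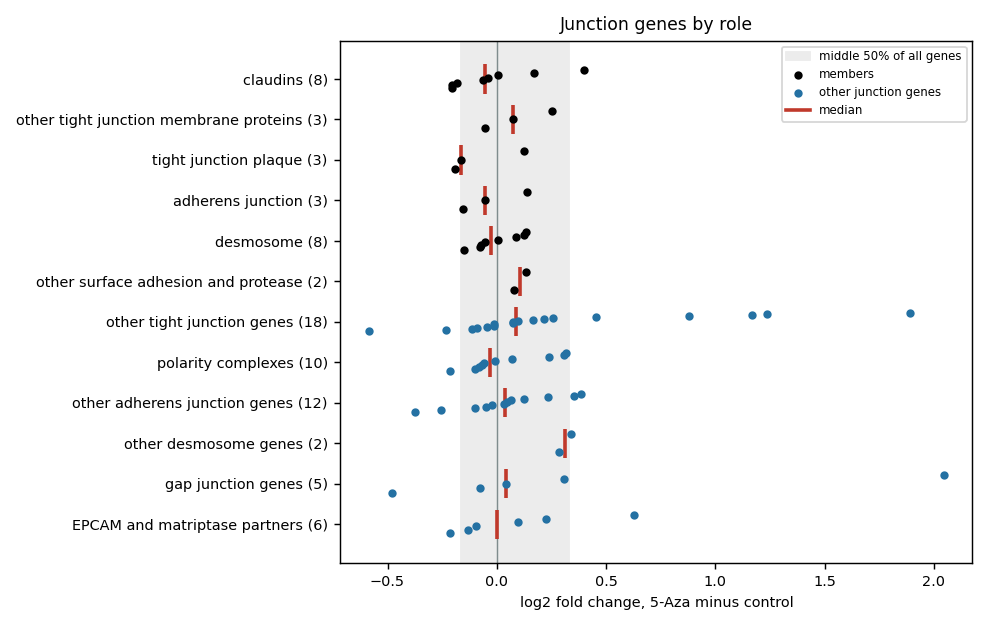
Log2 fold change (5-Aza minus control) of junction genes above background by role, n = 3 arrays per group, with the number of genes in brackets and the median in red. Black points are the 27 epithelial junction genes, blue points the 53 further junction genes, and the grey band holds the middle 50% of all genes (-0.16 to 0.33). The black points lie between -0.21 and 0.40, and the blue points farthest right are GJB6 and CLDN10, of whose control signals 0 of 3 and 1 of 3 were above the TrpnX level, so that their fitted positions are not read as fold changes.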

How the data were processed

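The deposited table holds linear intensity values for 54675 probe sets on 6 arrays, 3 for each group, as deposited by the authors, whose notes name the affy package without a version. The values show that each array was scaled to a mean of 500 without the lowest and the highest 2%, and the summarizing method is not given in the sources used here. After 62 control probe sets were left out, log2(value + 1) of 54613 probe sets was compared with limma 3.58.1 in R 4.3.3 (group as the only term, empirical Bayes, Benjamini-Hochberg over all probe sets). The number of arrays limits the precision. Symbols came from the platform annotation (41097 probe sets with 1 symbol, 1801 with several, 11777 with none), and probe sets with the suffix _x_at served only genes without another.

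The members and lists were chosen with earlier results of these data known. Per-array values were to be given for members whose groups did not overlap, and the others mostly by mean and log2 fold change. Of the further junction genes, in each direction the 5 with the largest change among those above background with groups apart were named. Values of other named genes were added after they were seen. Alternatives were another constant, quantile normalization, median centring, trend and robust variance, a filter at the median, the replicate number as a block, the mean over probe sets and leaving out each array. A planned comparison of claudin proteins was not run, as no protein sequences were used here. SAM, the test of the study, was not run.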

Additional observations from a re-analysis of the deposited data

How the results depend on the processing

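No member was called at an adjusted p under 0.05 under any alternative. At an unadjusted limma p under 0.025 the count of higher members was 0 in the main fit. It was 1 (CLDN1) with trend and robust variance, with a filter at the median signal and with all probe sets of a gene averaged. There its p was 0.020, 0.016 and 0.012. The main p of CLDN1, 0.046, rose to 0.058 with quantile normalization, 0.265 with median centring and 0.113 with the replicate block (limma). Without 1 array it was 0.054 to 0.130. Trend and robust variance called 23 of all probe sets at an adjusted p under 0.05. After median centring 0 members lay above and 7 below, with a median of -0.23, and the further junction genes had 2 above, 12 below, 1 higher at p under 0.025 and a median of -0.12. Centring turned 11 members negative, which follows from the shift of all genes to -0.15. These were CLDN12 (-0.018), CLDN23 (-0.18), MARVELD2 (-0.11), TJP1 (-0.061), CTNNB1 (-0.049), DSG2 (-0.062), DSC2 (-0.053), DSP (-0.10), PKP2 (-0.18), EPCAM (-0.11) and ST14 (-0.053). Quantile normalization turned CLDN23 (-0.060) and left 1 further gene higher at p under 0.025 and 1 below. Averaging probe sets turned CLDN4 (0.064), CLDN23 (-0.095) and CTNNA1 (0.071) and left 1 member below. Trend and robust variance gave 8 further genes higher and 1 lower at p under 0.025. The share of all genes under that setting is not given here, so the rise is not read as a result about these genes. For arrays with the same replicate number, deviations from the group means were correlated over all probe sets. These correlations were between -0.01 and 0.01 and show no pairing, but with so few arrays they cannot exclude one. With the replicate block, 2 further genes were lower at p under 0.025. The calls of members at that cut and at an adjusted p under 0.05 did not change. CLDN1 no longer passed the unadjusted cut of 0.05 with that block.

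Without 1 array, groups are apart more often because fewer arrays are compared. The shares of all genes are not given here for these fits, so the counts below are not read as results about the junction genes. Members above then numbered 3 to 5 and members below 1 to 7, with 7 without control replicate 1, and the further genes 10 to 17 above and 4 to 8 below. Higher further genes at p under 0.025 numbered 1 to 3 and lower ones 0 to 1. The members' median was -0.040 to 0.021. Signs turned for CLDN2 (-0.37 to 0.087), CLDN7 (-0.16 to 0.095), CLDN23 (-0.057 to 0.087), MARVELD2 (-0.059 to 0.15), PKP2 (-0.10 to 0.082), PKP3 (-0.20 to 0.11), EVPL (-0.22 to 0.026), EPCAM (-0.035 to 0.15) and CDH17. CLDN8 and CDH17 are under background, and the fitted values of CDH17 (-1.11 to 0.17) are not read as fold changes.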
